A study of Mus musculus with 12 samples.

Results

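The 49 genes described here are the gene table's endothelial identity and blood-brain barrier genes, taken by symbol from a fixed list of names out of 24060 genes in all. They comprise 8 junction and adhesion genes, 12 transporters, 12 transcription factors and 17 surface, secreted and signalling genes. All 49 were found in the table, and the rule that lists them uses no measured value, although it was written with earlier results of these data known. Of the 49, 43 had enough counts to be tested, and the 6 that did not were Erg, Sox7, Sox17, Foxf2, Ly6c1 and Robo4.

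RNA was sequenced from brain white matter of 6 male mice of the genotype Tie2-Cre:Rpl22-HA. The Tie2 promoter, from the gene with the symbol Tek, drives Cre recombinase, and Cre adds an HA epitope to Rpl22, a protein of the large ribosomal subunit. Anti-HA pulldown (IP) then collects ribosomes with their mRNA from cells in which Cre was active at any time. As background, Tek promoter Cre lines also recombine in part of the blood lineage, and the study's methods and its resource list name different Tie2-Cre lines. Animals 489, 555 and 556 ate control-fat chow (CFD, with 10% of its kcal as fat) and animals 516, 517 and 676 high-fat chow (HFD, with 60%). An IP and an input (the whole dissected tissue) were sequenced from every mouse, which makes 4 groups of 3, CFD input, CFD IP, HFD input and HFD IP. All groups carry the Cre and the tag, no library came from a mouse without Cre, and the age of these animals is not clear from the sources used here.

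Brain endothelial cells form the blood-brain barrier. Tight junctions of claudins, occludin and their scaffold proteins seal the gaps between the cells, transporters carry nutrients inward and pump foreign compounds back to the blood, and transfer through vesicles is held low. Endothelial identity is set by transcription factors of the ETS and SOX families, and Wnt and beta-catenin signalling switches on the programme particular to vessels of the brain.

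The libraries held from 19567186 to 33660708 counts. Rn45s, the ribosomal RNA precursor, took 38.7% to 42.3% of counts in CFD IP, 17.1% to 19.1% in HFD IP and 6.34% to 14.2% in the inputs. Levels are given as CPM, counts divided by a library size that edgeR's TMM method had scaled. The common biological coefficient of variation in edgeR was 101%, so that single genes varied widely between libraries of a group. The HFD input of animal 676 stands apart by its number of genes above 10 counts, 60.6% of the table against 45.5% to 56.5% in the other 11 libraries. It also held 133 counts of Xist, the X-linked RNA of female cells, although all mice are described as male, and values without it are given beside the comparisons that use HFD input.

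The label of an endothelial fraction was checked on the defining markers. Cldn5, the main claudin of the barrier, had 0, 0 and 9 counts in the CFD IP of animals 489, 555 and 556 and 114, 0 and 0 in the HFD IP of animals 516, 517 and 676. Its inputs had 0, 0 and 0 counts in CFD and 50, 22 and 30 in HFD. Cldn5 was therefore at 0 in 4 of the 6 IP libraries and in all CFD inputs.

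Pecam1, the platelet and endothelial adhesion molecule CD31, had 37, 1 and 3 counts in CFD IP and 2, 8 and 0 in HFD IP, against 53, 8 and 0 in CFD input and 3, 175 and 61 in HFD input. Cdh5, the cadherin of endothelial adherens junctions, had 1, 6 and 17 counts in CFD IP and 31, 5 and 3 in HFD IP, against 26, 2 and 0 in CFD input and 1, 23 and 74 in HFD input. No IP library had all 3 markers above 10 counts, and only the HFD inputs of animals 517 and 676 did. Tek, the gene whose promoter drives Cre, had 0, 0 and 80 counts in CFD IP and 0, 1 and 43 in HFD IP. The markers therefore did not show the IP libraries to be rich in endothelial RNA, and they are called IP libraries here. In such tissue samples fewer cells of a type and less RNA per cell cannot be told apart.

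The members were detected patchily. Above 10 counts were 32, 22 and 25 of the 49 in the CFD inputs of animals 489, 555 and 556, and 22, 19 and 26 in the CFD IP of the same animals. In HFD, animals 516, 517 and 676 had 30, 30 and 46 members above 10 counts in input and 27, 24 and 38 in IP. The number was lower in IP than in input in 5 of the 6 animals, the exception being animal 556 with 26 against 25. Its median was 25 over the IP libraries and 30 over the inputs. Over all 24060 genes the share above 10 counts was lower in IP in every animal. In the same order of animals it was 54.1%, 49.1% and 53.4% in CFD input and 48.9%, 46.8% and 45.5% in CFD IP. In HFD it was 55.6%, 53.8% and 60.6% in input and 46.3%, 48.6% and 56.5% in IP.

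**Figure D1:**
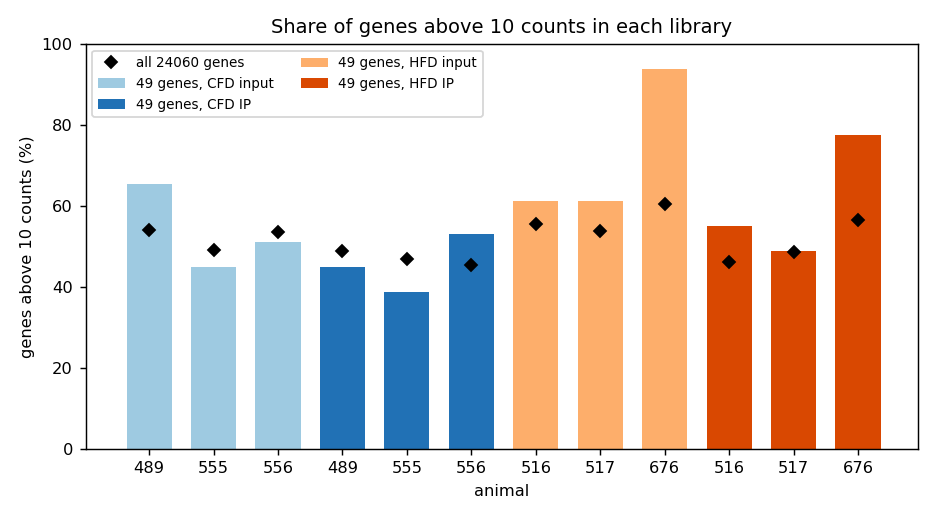
Share of the 49 genes (bars, coloured by group) and of all 24060 genes (diamonds) with more than 10 counts in each library, in percent, by animal. The bars run from 38.8% in the CFD IP of animal 555 to 93.9% in the HFD input of animal 676, while the diamonds stay between 45.5% and 60.6%.

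Members at 0 counts numbered 8, 13 and 14 in CFD input, 12, 18 and 15 in CFD IP, 8, 10 and 1 in HFD input and 7, 10 and 9 in HFD IP. In all, 32 members were at 0 in at least 1 library, and 22 of these were above 100 counts in another. Among tested genes, 21 of the 43 members (48.8%) had this pattern against 22.5% of all genes tested. Conversely 10 of the 43 tested members (23.3%) were above 10 counts in all 12 libraries, against 58.4% of all genes tested. Those 10 are Tjp1, Jam2, Slc7a5, Slc3a2, Slc7a1, Bsg, Tfrc, Ly6e, Cav1 and Plvap. A further 25 members passed 10 counts in at most 6 libraries, and 1 of these, Foxf2, in none.

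**Figure D2:**
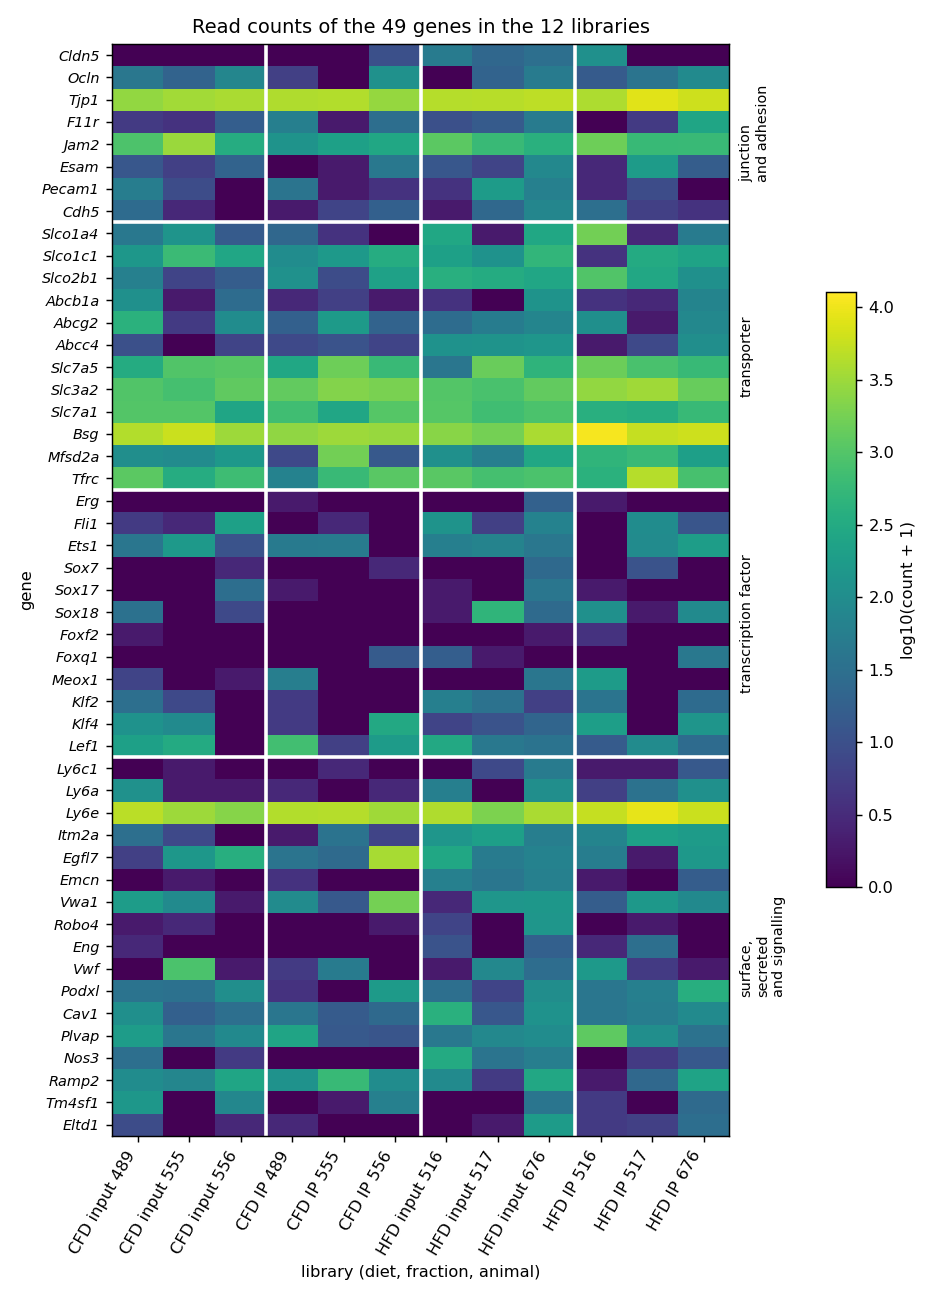
Read counts of the 49 genes as log10(count + 1), colour scale at the right, in the 12 libraries (columns, by diet, fraction and animal), with the genes grouped by role. The 10 genes above 10 counts everywhere form unbroken rows, led by Bsg, Ly6e and Tjp1, whereas most transcription factors are dark in several libraries.

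Single libraries often supplied nearly all of a group's level. Among genes with more than 30 counts in a group, 1 library held over 90% of the summed CPM for 11 of 29 members in CFD IP (37.9%) and 13 of 39 in HFD IP (33.3%), where the shares over all genes tested were 11.6% and 10.3%. In the inputs it was 3 of 34 members in CFD (8.82%) and 7 of 44 in HFD (15.9%), against 6.65% and 3.11%. The 7 in HFD input were Abcb1a, Sox17, Sox18, Meox1, Robo4, Tm4sf1 and Eltd1. The high library was that of animal 517 for Sox18 and that of animal 676, which stands apart, for all the others. Sox17 and Robo4 were not among the genes tested, to which the 3.11% refers. Egfl7, a factor secreted by endothelium, is an example in CFD IP, with 37, 25 and 3650 counts in animals 489, 555 and 556. Mfsd2a, which carries the lipid DHA and holds down vesicle transfer at the barrier, had 7, 1705 and 13 counts there, and Slco1a4, an organic anion transporter, had 1667, 2 and 50 counts in the HFD IP of animals 516, 517 and 676. A different animal was the high one in each of these 3 cases.

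Promoter sequence was compared between the steadily and the patchily detected members. RefSeq entries of the GRCm38.p6 assembly, each from 250 bases before to 50 after 1 annotated start of a gene, were matched for 28 of the 49 members. For 17 of the 28 this was the outermost start of the gene's span, and for the other 11 it lay inside the span, by 157 kb for Tjp1 and by 9.47 kb for Slc3a2. The median number of CpG dinucleotides in these windows was 12.5 over the members and 7 over all 27025 promoters. It was 27 over the 5 matched members above 10 counts in all 12 libraries and 10 over the 14 matched members above 10 counts in at most 6. The numbers ran from 13 to 31 in the former and from 1 to 41 in the latter, so that the 2 sets overlapped. The motif CCGGAA, or TTCCGG on the other strand, a core to which ETS factors bind, was the only motif searched. It was in 5 of the 28 windows (17.9%), against 15.2% of all promoters. Tjp1 and Slc3a2 are shown as steadily detected members, Slc3a2 being the 1 member that edgeR called in the fit of group means over all 12 libraries with the filter on low counts, and Cldn5 as a patchy defining marker. The windows are chr7:65371195-65371494 on the minus strand, chr19:8713848-8714147 on the minus strand and chr16:18776597-18776896 on the plus strand, with the motif in capitals.
Tjp1: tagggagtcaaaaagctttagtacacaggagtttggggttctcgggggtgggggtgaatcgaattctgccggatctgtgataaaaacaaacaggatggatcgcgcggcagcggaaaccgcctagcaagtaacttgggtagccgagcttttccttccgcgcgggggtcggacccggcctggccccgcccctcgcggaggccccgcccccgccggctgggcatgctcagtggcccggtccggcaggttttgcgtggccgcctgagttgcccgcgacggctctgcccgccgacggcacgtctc
Slc3a2: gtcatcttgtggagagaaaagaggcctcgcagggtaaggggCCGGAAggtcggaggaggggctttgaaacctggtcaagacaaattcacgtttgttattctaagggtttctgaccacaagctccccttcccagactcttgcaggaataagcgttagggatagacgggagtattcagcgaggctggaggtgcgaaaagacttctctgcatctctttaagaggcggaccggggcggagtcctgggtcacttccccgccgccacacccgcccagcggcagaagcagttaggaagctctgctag
Cldn5: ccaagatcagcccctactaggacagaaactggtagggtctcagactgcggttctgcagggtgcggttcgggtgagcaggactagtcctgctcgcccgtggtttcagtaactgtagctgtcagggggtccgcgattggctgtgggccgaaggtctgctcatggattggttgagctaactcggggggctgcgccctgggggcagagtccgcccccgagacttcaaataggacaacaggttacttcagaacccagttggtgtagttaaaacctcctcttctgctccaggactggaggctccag
They hold 31, 15 and 12 CpG, and the motif occurs in 1 of them, that of Slc3a2. No entry was matched for Jam2, Esam, Pecam1, Cdh5, Slc7a5, Bsg, Fli1, Ets1, Sox7, Sox17, Sox18, Foxq1, Meox1, Ly6a, Ly6e, Vwa1, Vwf, Podxl, Plvap, Nos3 and Ramp2.

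Among the junction and adhesion genes, Tjp1, the scaffold protein ZO-1 of tight junctions (chromosome 7, 65296165 to 65527850 of mm10), was abundant throughout. It had 2733, 3436 and 3738 counts in CFD input, 4115, 4232 and 2816 in CFD IP, 4379, 4540 and 4989 in HFD input and 4005, 8383 and 6205 in HFD IP. Jam2, a junctional adhesion molecule (chromosome 16, 84774123 to 84826380), had 904, 3075 and 348 counts in CFD input, 129, 213 and 271 in CFD IP, 1177, 602 and 395 in HFD input and 1582, 586 and 608 in HFD IP. The CFD IP libraries held the lowest counts of Jam2 of all groups. Per kilobase of transcript, Tjp1 stood at 18.2 to 29.3 CPM in the group means, Jam2 at 2.22 to 11.1 and Cldn5, Pecam1 and Cdh5 at no more than 0.93. Ocln, the tight junction protein occludin, ranged from 0 to 118 counts, F11r, the adhesion molecule JAM-A, from 0 to 259, and Esam, an adhesion molecule of endothelium, from 0 to 178.

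Among the transporters, 5 of the 12 were above 10 counts in all libraries. Slc3a2, the heavy chain CD98 that pairs with Slc7a5 (chromosome 19, 8706882 to 8723369), had 954, 785 and 1264 counts in CFD input, 1314, 2151 and 1861 in CFD IP, 1003, 846 and 1306 in HFD input and 2717, 3326 and 1407 in HFD IP. Bsg, the surface protein basigin that escorts monocarboxylate carriers (chromosome 10, 79704358 to 79711979), had 4286, 5822 and 3180 counts in CFD input, 2646, 3164 and 2928 in CFD IP, 2327, 1750 and 3779 in HFD input and 11178, 5524 and 6202 in HFD IP. Neither fell below 785 counts in any library, and Bsg had the highest level per kilobase of all members in every group, at 62.2 to 180.1 CPM per kilobase.

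Slc7a5, the large neutral amino acid carrier LAT1, had 326, 957 and 1075 counts in CFD input, 274, 1553 and 607 in CFD IP, 39, 1461 and 471 in HFD input and 1505, 845 and 579 in HFD IP. Slc7a1, a cationic amino acid carrier, had 1023, 1017 and 254 counts in CFD input, 704, 267 and 1046 in CFD IP, 1034, 708 and 878 in HFD input and 383, 342 and 581 in HFD IP. Tfrc, the transferrin receptor that brings in iron, had 1170, 339 and 675 counts in CFD input, 64, 600 and 1111 in CFD IP, 1117, 778 and 857 in HFD input and 421, 4332 and 818 in HFD IP. All 3 overlapped between IP and input in CFD, and in HFD the IP counts of Slc7a1 lay below all its input counts.

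The other 7 transporters passed 10 counts in 4 to 11 libraries. Slco1a4 did so in 8, with 43, 132 and 14 counts in CFD input, 22, 3 and 0 in CFD IP and 279, 1 and 276 in HFD input, beside the HFD IP counts above. Abcb1a, the efflux pump P-glycoprotein, was above 10 counts in 4 libraries, Abcg2, the efflux pump BCRP, in 10, and Abcc4, the efflux pump MRP4, in 4. Abcc4 had 9, 0 and 6 counts in CFD input and 123, 129 and 143 in HFD input, with 7, 10 and 6 in CFD IP and 1, 7 and 106 in HFD IP. Slco1c1, a thyroid hormone carrier, was above 10 counts in 11 libraries and Slco2b1, an organic anion carrier, in 10. Mfsd2a was above 10 in 11, with 105, 94 and 151 counts in CFD input, 112, 56 and 280 in HFD input and 474, 594 and 206 in HFD IP.

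The transcription factors were the least detected role. Between 1 and 9 of the 12 passed 10 counts in a library, and their summed CPM ran from 2.75 in the CFD IP of animal 555 to 43.6 in that of animal 489. Erg, the ETS factor most particular to endothelium, reached 18 counts in the input of HFD animal 676 and no more than 1 in any other library. Fli1, another ETS factor, had 4, 2 and 214 counts in CFD input, 0, 2 and 0 in CFD IP, 128, 5 and 64 in HFD input and 0, 99 and 11 in HFD IP. Sox18, a SOX factor of vessel development, had 33, 0 and 7 counts in CFD input, 0 in all CFD IP libraries, 1, 475 and 25 in HFD input and 112, 1 and 90 in HFD IP. Its relatives Sox7 and Sox17 passed 10 counts in 1 and 2 libraries, and in both cases the HFD input of animal 676 had the highest count.

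Foxf2, a factor linked to barrier formation, reached 3 counts at most, Foxq1, a forkhead factor enriched in brain endothelium, 43 counts, and Meox1, a homeobox factor, 177 counts. The shear-stress factors Klf2 and Klf4 ranged from 0 to 58 and from 0 to 295 counts, and Lef1, the nuclear partner of beta-catenin, from 0 to 730. Ets1, the ETS factor with the broadest expression of the 3, passed 10 counts in 9 libraries, with a range of 0 to 194.

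Of the surface, secreted and signalling genes, Ly6e, a broadly expressed GPI-anchored protein (chromosome 15, 74955025 to 74959904), had 4808, 3103 and 2287 counts in CFD input, 4282, 4361 and 3299 in CFD IP, 4094, 1926 and 3778 in HFD input and 5448, 8762 and 5808 in HFD IP. The members of its family that mark brain endothelium more closely were low, with Ly6c1 above 10 counts in 2 libraries and Ly6a in 5. The CPM of Bsg, Ly6e, Tjp1 and Slc3a2 together made up 51.9% to 80.8% of the summed member CPM in a library. A summed level of the list is thus mainly a level of these 4 genes.

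Cav1, the coat protein of caveolae, had 110, 17 and 30 counts in CFD input, 40, 14 and 24 in CFD IP, 396, 12 and 124 in HFD input and 39, 53 and 91 in HFD IP. Plvap, the diaphragm protein of fenestrated vessels and low in a mature barrier, had 182, 39 and 86 counts in CFD input, 245, 13 and 11 in CFD IP, 43, 81 and 98 in HFD input and 1215, 106 and 34 in HFD IP. Both were above 10 counts throughout, but 1 library held 91.0% of the CFD IP level of Plvap and 90.3% of its HFD IP level.

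Vwa1, a matrix protein, had 186, 92 and 1 counts in CFD input, 93, 13 and 1721 in CFD IP, 2, 140 and 149 in HFD input and 15, 150 and 86 in HFD IP. Egfl7 had 5, 147 and 370 counts in CFD input, 273, 49 and 65 in HFD input and 53, 1 and 152 in HFD IP, so that its 3650 counts in the CFD IP of animal 556 stand apart from all other libraries. Nos3, the endothelial nitric oxide synthase, had 30, 0 and 4 counts in CFD input, 0 in all CFD IP libraries, 321, 37 and 56 in HFD input and 0, 4 and 13 in HFD IP. Emcn, the sialomucin endomucin of veins and capillaries, had 0, 1 and 0 counts in CFD input, 3, 0 and 0 in CFD IP, 60, 40 and 59 in HFD input and 1, 0 and 15 in HFD IP. Emcn was thus above 15 counts only in the HFD inputs.

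The other 8 genes of this role were low and uneven. Robo4, a guidance receptor of endothelium, passed 10 counts in 1 library, and Eng, a TGF-beta co-receptor, and Eltd1, an adhesion G protein-coupled receptor now named Adgrl4, in 2 each. Vwf, the clotting factor stored by endothelium, and Tm4sf1, a tetraspanin-like surface protein, did so in 5 each, Itm2a, a membrane protein, in 8, and Podxl, a sialomucin of the luminal surface, in 9. Ramp2, the partner of the adrenomedullin receptor, reached 10 libraries. Vwf had 854 counts in the CFD input of animal 555 and 0 and 1 in the other CFD inputs.

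The comparison of IP with input of the same animal asks whether the pulldown enriched these genes. Taken per member as the log2 ratio of CPM with a prior count of 2, the median over the 49 was -0.43, 0 and 0.28 on CFD (animals 489, 555 and 556) and 0.19, 0 and -0.66 on HFD (animals 516, 517 and 676). In the same order the medians were -0.66, 0, 0.49, 0.19, 0 and -0.64 over the 43 tested members. Over all genes tested they were -0.08, 0, -0.13, -0.25, -0.09 and -0.02. The members' medians thus lay on both sides of 0 within each diet.

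Above 0 were 16, 17, 28, 27, 23 and 15 of the 49 in animals 489, 555, 556, 516, 517 and 676, and below 0 were 29, 21, 15, 21, 21 and 34, the rest being at 0 in both libraries. A ratio over 4-fold towards IP was found in 4, 5, 10, 13, 9 and 3 members and a ratio over 4-fold towards input in 16, 10, 8, 13, 11 and 16. In animal 556 more members moved over 4-fold towards IP than towards input, in animal 516 the numbers were equal, and in the other 4 animals the reverse held. In the same order of animals, the SD of the ratios was 2.29, 2.22, 2.87, 3.20, 2.60 and 2.14 over the 49. Over all genes tested it was 2.20, 2.54, 2.44, 2.56, 2.23 and 1.32. The shares of all genes with such ratios are not given here, so nothing is read from these numbers about the members as a set. More members passed 10 counts in the input alone than in the IP alone in all animals but 556, with 13 against 3 in animal 489 and 10 against 2 in animal 676 as the widest gaps. Over all genes, too, fewer passed 10 counts in the IP than in the input in every animal.

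**Figure D3:**
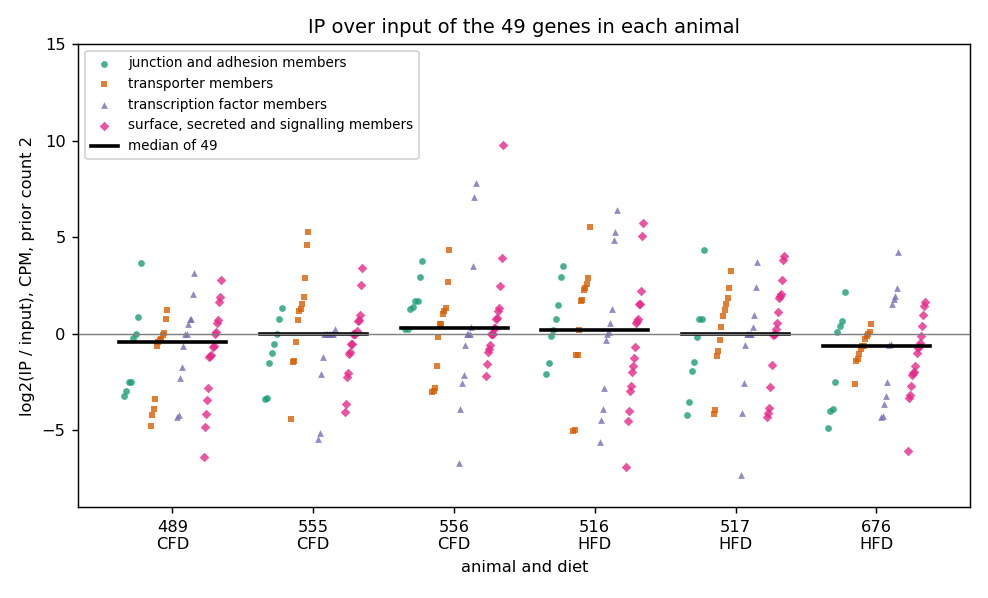
Log2 ratio of IP over input CPM (prior count 2) of each of the 49 genes in each animal, with colour and marker for the role and a bar at the median of the 49. The points spread from -7.32 to 9.76 and the medians stay between -0.66 and 0.28.

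Summed over the 49 genes, the CPM of IP over input had log2 ratios of -0.02, 0.32 and 1.13 in CFD and 1.15, 1.08 and 0.10 in HFD, with a mean of 0.63 ± 0.55 (SD, n = 6 animals). Without the 10 members above 10 counts in all libraries the ratios were -0.26, 0.53 and 2.61 in CFD and 0.95, -0.06 and -0.51 in HFD, on both sides of 0 in each diet. By role, the mean log2 ratio was 0.29 ± 0.26 for junction and adhesion genes, 0.65 ± 0.83 for transporters, -0.10 ± 1.67 for transcription factors and 0.90 ± 0.84 for surface, secreted and signalling genes (SD, n = 6 animals each).

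Of the 8 lists of markers of other cell types, 3 summed to more CPM than the members in every IP library. The 12 neuron markers summed to 7697 to 13500 CPM in an IP library, the 10 astrocyte markers to 4096 to 10077 CPM and the 10 oligodendrocyte markers to 3083 to 7726 CPM, all with no gene at 0 throughout, against 771 to 1177 CPM for the 49 members. Lower sums were those of the 12 microglia and macrophage markers, at 160 to 369 CPM, the 10 OPC (oligodendrocyte progenitor cell) markers, at 348 to 760 CPM, the 10 pericyte markers, at 4.35 to 52.3 CPM, and the 8 smooth muscle markers, at 3.08 to 38.2 CPM. The astrocyte sum moved from input to IP by -0.18, 0.67, 0.81, 1.03, 0.92 and 0.09 (log2) in animals 489, 555, 556, 516, 517 and 676, and was below 0 in animal 489 alone, as was the member sum. It is mainly a level of Slc1a2, which averaged 4373 CPM in CFD input, 6564 in CFD IP, 3239 in HFD input and 5731 in HFD IP. Other astrocyte markers went both ways in CFD, Gfap from 97.6 to 177 CPM and Gja1 from 61.0 to 20.7 CPM. The oligodendrocyte sum moved by 0.63, -0.01, 0.17, 0.72, 0.68 and -0.01. The sum moved by 0.42 ± 0.54 on average for microglia and macrophage markers, 0.22 ± 0.51 for OPC markers, -0.17 ± 0.27 for neuron markers, 0.01 ± 0.91 for pericyte markers and -1.14 ± 1.82 for smooth muscle markers. Snap25 was the largest part of the neuron sum, at 7868 CPM in CFD input, 4298 in CFD IP, 7179 in HFD input and 6358 in HFD IP. Other neuron markers went both ways in CFD, Syn1 from 856 to 1424 CPM and Gad2 from 863 to 434 CPM. Over both diets edgeR called 2 of the 12 neuron markers, both higher in IP, where 2.35% of all genes tested were called. An unadjusted p under 0.05 was found for 3 towards IP and 3 towards input. The 11 blood markers, 4 of them at 0 in all libraries, were at 0.23 to 3.67 CPM in IP and 1.81 to 21.3 CPM in input. Most of the input sum was Alas2, which averaged 15.1 CPM in CFD input and 7.88 CPM in HFD input. Among 31 other endothelial genes the sum was higher in IP in 6 of 6 animals, by 0.58, 0.34 and 1.33 in CFD and 1.93, 1.62 and 0.28 in HFD, with a mean of 1.01 ± 0.71 (SD, n = 6 animals). Spock2, a matrix proteoglycan that neurons make as well, held 54.8% to 85.9% of that sum in a library, and without it the mean was 0.37 ± 0.62, above 0 in 3 of 6 animals. The part of these cell types in the members' ratios was not tested.

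**Figure D4:**
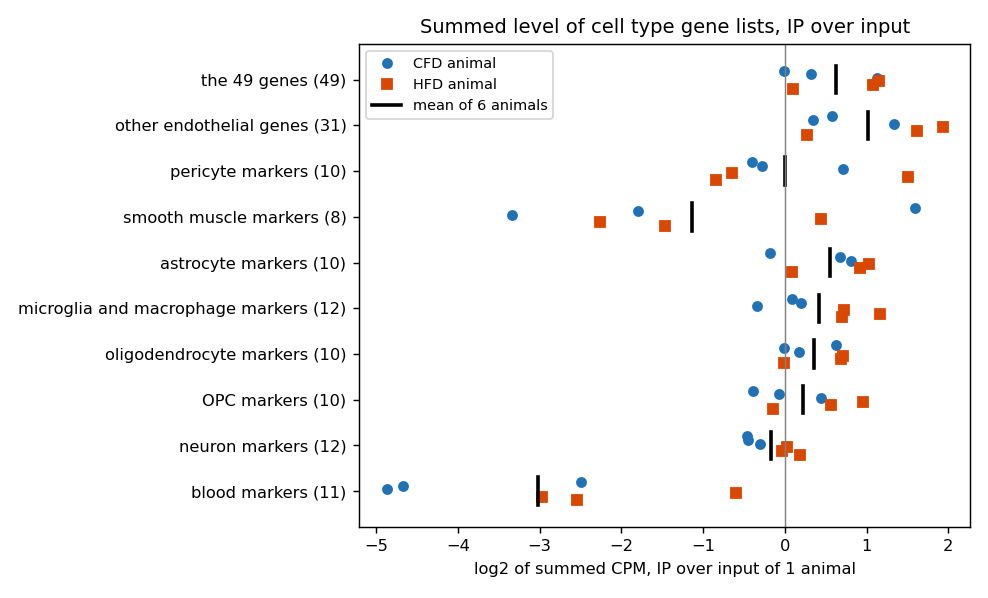
Log2 ratio of summed CPM, IP over input, for the 49 genes, 31 other endothelial genes and 8 lists of other cell types, with a point for each animal (circles CFD, squares HFD) and a bar at the mean of 6. The mean is 0.63 for the 49 genes and 0.56 for the astrocyte markers, with points below 0 in both lists, and 1.01 for the other endothelial genes, with all 6 points above 0.

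With both diets in 1 edgeR quasi-likelihood contrast, 1 of the 43 members had an adjusted p under 0.1 between IP and input, where 2.35% of all genes tested did, and 7 had an unadjusted p under 0.05 (16.3%, against 13.9% of all genes). The member called was Slc3a2, which rose in IP with a log2 fold change of 1.25 (SE 0.34, edgeR adjusted p 0.0818). Its log2 ratios were 0.73, 1.91 and 1.18 in CFD and 1.75, 1.84 and -0.11 in HFD, so that 5 of 6 animals were higher in IP. In CPM it went from 38.2 ± 9.5 to 92.0 ± 20.9 in CFD and from 34.9 ± 9.97 to 82.3 ± 35.0 in HFD (SD, n = 3 each). The call was lost without any 1 of animals 489, 516, 517, 555 and 556, with edgeR adjusted p-values of 0.141, 0.351, 0.402, 0.201 and 0.207, and stood at 0.048 when animal 676 was left out. Without the input of animal 676 alone the log2 fold change was 1.38 (SE 0.38, edgeR adjusted p 0.0903).

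Paired by animal as a block, Slc3a2 had an edgeR adjusted p of 0.0914 and Ly6e was called too, at a log2 fold change of 0.89 and an edgeR adjusted p of 0.0624, against 0.84 (SE 0.27) and 0.134 without the block. The fit with the block called 3.14% of all genes. DESeq2 called Slc3a2, Ly6e and Cldn5, where it called 7.36% of the genes it gave an adjusted p, the likelihood ratio test called Slc3a2 and Nos3 (5.43% of all genes), and the fit with no filter called Slc3a2 and Ly6e (3.99%). Cldn5 was at 0 counts in all CFD inputs and had 0, 0 and 9 counts in CFD IP and 114, 0 and 0 in HFD IP. Its DESeq2 call therefore rests on few libraries. Ly6e and Tjp1 were the only members higher in IP in 6 of 6 animals, 2 of 43 where 4.1% of all genes tested were, and no member was lower in all 6, where 4.15% were. The log2 ratios of Ly6e were 0.10, 0.95 and 1.15 in CFD and 0.73, 2.05 and 0.40 in HFD, and those of Tjp1 0.86, 0.76 and 0.21 in CFD and 0.19, 0.75 and 0.09 in HFD.

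Of the other members above 10 counts in all libraries, Tjp1 had a fitted log2 fold change of 0.50 (SE 0.24), Bsg 0.69 (SE 0.27), Slc7a5 0.49 (SE 0.63), Tfrc 0.57 (SE 0.60), Plvap 1.40 (SE 1.09), Slc7a1 -0.37 (SE 0.51), Jam2 -0.94 (SE 0.54) and Cav1 -1.04 (SE 1.25). Their adjusted p-values in edgeR lay between 0.250 and 0.821. None of these 8 passed with all libraries. Without animal 676 Bsg did, at 0.999 and an edgeR adjusted p of 0.0889, where 2.98% of all genes were called, and without the input of that animal alone it stood at 0.91 and 0.126, where 1.84% were. The defining markers did not pass in edgeR, with adjusted p-values of 0.550 for Cldn5, 0.590 for Pecam1 and 0.919 for Cdh5. Mfsd2a had a log2 fold change of 2.07 (SE 0.98, edgeR adjusted p 0.350), and without animal 555 the value was -0.84. Sox18 and Nos3 had unadjusted p-values of 0.0394 and 0.0121 towards input, with edgeR adjusted values of 0.329 and 0.199.

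**Figure D5:**
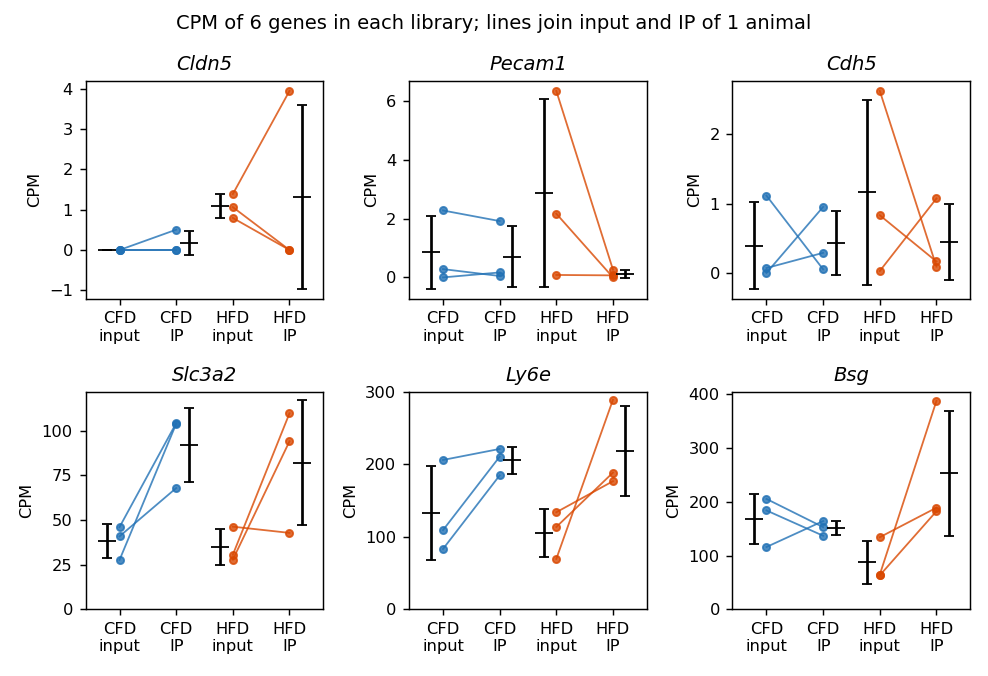
CPM (linear axes) of the markers Cldn5, Pecam1 and Cdh5 and of the abundant genes Slc3a2, Ly6e and Bsg in input and IP, with a line for each animal (CFD blue, HFD orange) and the mean with SD of 3 animals beside each group. Slc3a2 goes up in 5 of 6 animals and Ly6e in 6 of 6, whereas the lines of the 3 markers cross.

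Within CFD no member was called between IP and input by edgeR, where 0.188% of all genes tested were, and 6 had an unadjusted p under 0.05 (of all genes tested, 11.8%). DESeq2 called 3 of the 37 members it gave an adjusted p, and 6.03% of all such genes. These were Slc3a2, higher in IP, Jam2, lower in IP, and Cldn5. The Cldn5 call rests on 9 counts in the CFD IP of animal 556, with 0 counts in the other CFD libraries. Its level in CFD IP was at least 1.47-fold that of input, measured against 3 counts in each library, and 0 without animal 556. The fit with no filter called Egfl7 and 1.7% of all genes, and the likelihood ratio test called no member and 1.93% of all genes. Slc3a2 and Tjp1 did not overlap between the groups and were higher in IP, 2 of 43 where 6.43% of all genes tested were, and no member was lower without overlap, where 8.72% were. Slc3a2 had a log2 fold change of 1.27 (SE 0.48, edgeR adjusted p 0.319). Jam2 averaged 10.7 ± 4.27 CPM in IP against 53.3 ± 49.5 CPM in input (SD, n = 3 each), a log2 fold change of -2.31 (SE 0.80, edgeR adjusted p 0.272).

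Egfl7 had a log2 fold change of 3.46 (SE 1.60, edgeR adjusted p 0.405), and without animal 556 the value was -0.80. Fli1, Sox18 and Nos3 were at or under 3 counts in all CFD IP libraries and at least 17.2-fold, 3.57-fold and 3.06-fold lower there than in CFD input, measured against 3 counts in each library, with edgeR adjusted p-values from 0.395 to 0.412. For each of the 3 the groups overlapped, and 1 library held most of the input level, that of animal 556 with 97.0% for Fli1 and that of animal 489 with 84.7% for Sox18 and 89.8% for Nos3. Without that library the input mean of each was below the 3-count floor. The median log2 fold change over the tested members was 0.28, or the same with genes at or under 3 counts at their bound, against -0.01 over all genes tested, and -0.87 for the members without animal 556.

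Within HFD no member was called between IP and input by edgeR, where 0.0139% of all genes tested were, and 3 had an unadjusted p under 0.05 (6.98%, against 6.51%). Those 3 were Slc3a2, Bsg and Ly6e, all towards IP. DESeq2 called Bsg and Ly6e, but gave an adjusted p to only 1274 genes, 3 of them members, and called 12.6% of these. The fit with no filter called Bsg and 0.432% of all genes, and the likelihood ratio test called no member and 0.0279%. Bsg was at 252.8 ± 116.4 CPM in HFD IP and 87.3 ± 40.5 CPM in HFD input (SD, n = 3 each), a log2 fold change of 1.53 (SE 0.39, edgeR adjusted p 0.478), or 0.0744 without animal 676, where 0.242% of all genes were called. Ly6e was at 218 ± 61.7 CPM in HFD IP and 106 ± 32.9 CPM in HFD input, a log2 fold change of 1.04 (SE 0.38, edgeR adjusted p 0.623). Slc3a2 had a log2 fold change of 1.23 (SE 0.48, edgeR adjusted p 0.653).

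Bsg and Ly6e lay above input without overlap in HFD, 2 of 43 where 6.14% of all genes tested did, and Abcc4, Slc7a1, Emcn and Nos3 lay below it, 4 of 43 where 7.96% did. Without the input of animal 676 no member was called, where 0.108% of all genes were, and the log2 fold change was 1.98 for Bsg, 1.25 for Ly6e and 1.49 for Slc3a2, with edgeR adjusted p-values of 0.126, 0.537 and 0.646. The same 6 members still lay apart from the IP with the 2 inputs left, and Slc3a2, Mfsd2a, Podxl and Eltd1 then lay above input as well. A smaller group separates more easily, and the share over all genes with 2 inputs left is not given here. Nothing is therefore read from these members as a set. The median log2 fold change over the tested members was 0.28, against -0.01 over all genes tested, and -0.38 without animal 516.

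The comparison of HFD IP with CFD IP asks how diet altered the members in the pulldown. By edgeR no member was called, where 0.0557% of all genes tested were, and 4 had an unadjusted p under 0.05 (9.30%, against 10.9%). DESeq2 called 3 members, Slco1a4, Sox18 and Egfl7, of the 37 it gave an adjusted p, and 5.79% of all such genes. The likelihood ratio test and the fit with no filter each called Egfl7, where they called 1.58% and 1.2% of all genes. In HFD IP the level of Sox18 was at least 14.2-fold higher, measured against 3 counts in each CFD IP library, with an edgeR adjusted p of 0.367, and 8.89-fold without animal 516. Slco1a4 averaged 19.8 ± 32.9 CPM after HFD and 0.427 ± 0.619 CPM after CFD in the IP (SD, n = 3 each), a log2 fold change of 5.52 (SE 2.20, edgeR adjusted p 0.388), and 97.3% of the HFD IP level came from animal 516.

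In the other direction, Egfl7 averaged 2.17 ± 2.32 CPM after HFD and 69.2 ± 117 CPM after CFD, a log2 fold change of -4.99 (SE 1.72, edgeR adjusted p 0.346). Vwa1 averaged 2.70 ± 2.22 CPM after HFD and 34.0 ± 54.2 CPM after CFD, a log2 fold change of -3.65 (SE 1.76, edgeR adjusted p 0.457). Animal 556 held 98.5% of the Egfl7 level and 94.7% of the Vwa1 level in CFD IP, and without it the fitted values were 0.48 and 0.00048.

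Jam2, Bsg, Sox18, Ly6a, Itm2a and Eltd1 were higher in HFD IP with no overlap between the groups, 6 of 43 where 5.94% of all genes tested were, and no member was lower without overlap, where 4.66% were. For 3 of the 6 the gap was a few counts, 1 count in the lowest HFD IP library against 0 in CFD IP for Sox18, 4 against 2 for Eltd1 and 5 against 2 for Ly6a. A fitted value above 0 was found for 29 of the 43 (67.4%), against 51.3% of all genes tested. The median log2 fold change over the 43 was 0.78, or 0.74 with genes at or under 3 counts at their bound, against 0.03 and 0.02 over all genes tested. It was 0.26 without animal 516, 0.13 without animal 676 and 0.06 with only the 6 libraries compared in the fit, and edgeR called none of the members behind it. Beside this stands the share of Rn45s, which was 38.7% to 42.3% in CFD IP and 17.1% to 19.1% in HFD IP, and the median without Rn45s and Lars2 in the libraries was 0.72.

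By role, the median log2 fold change between HFD IP and CFD IP was 0.43 for the 8 tested junction and adhesion genes, 0.29 for the 12 transporters, 0.99 for the 8 tested transcription factors and 1.11 for the 15 tested surface, secreted and signalling genes. Fitted above 0 were 6 of 8, 6 of 12, 6 of 8 and 11 of 15.

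Between HFD input and CFD input, the same question in the whole tissue, no gene tested (0%), and thus no member, was called by edgeR, and 4 members had an unadjusted p under 0.05 (9.30%, against 2.03% of all genes tested). DESeq2 called Cldn5 alone, 1 of the 39 members it gave an adjusted p, and 0.225% of all such genes. The likelihood ratio test and the fit with no filter called no member, and 0% and 0.0164% of all genes. Cldn5 was at least 9.45-fold and Emcn at least 15.1-fold higher in HFD input, each measured against 3 counts in every CFD input library, with an edgeR adjusted p of 1 for both. Slco2b1 had 59, 6 and 15 counts in CFD input and 383, 326 and 267 in HFD input, or 1.10 ± 1.25 against 10.6 ± 1.16 CPM (SD, n = 3 each), a log2 fold change of 3.28 (SE 1.44, edgeR adjusted p 1). Bsg was lower, at 87.3 ± 40.5 CPM in HFD input against 168 ± 46.6 CPM in CFD input, a log2 fold change of -0.95 (SE 0.39, edgeR adjusted p 1).

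Cldn5, Slco2b1, Abcc4, Itm2a, Emcn and Nos3 were higher in HFD input with no overlap between the groups, 6 of 43 where 6.05% of all genes tested were, and no member was lower without overlap, where 4.34% were. Without the HFD input of animal 676, which had 46 members above 10 counts, the log2 fold change was 3.35 for Slco2b1 and -1.40 for Bsg, and the inputs left in HFD still held 50 and 22 counts of Cldn5 and 60 and 40 of Emcn. With 2 inputs left the same 6 members were still higher without overlap, Foxq1 was too, and Slco1c1, Bsg, Mfsd2a, Podxl and Ramp2 were lower. A group of 2 libraries separates more easily than a group of 3. The share over all genes with 2 inputs left is not given here, so nothing is read from these members as a set. The median log2 fold change over the 43 was 0.05, against -0.004 over all genes tested, and -0.43 without the HFD input of animal 676. Itm2a was the only member without overlap in both comparisons of diet, with 1, 36 and 6 counts in CFD IP, 69, 212 and 179 in HFD IP, 30, 7 and 0 in CFD input and 143, 202 and 55 in HFD input.

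The last comparison is of the IP to input ratio between the diets, tested as an interaction. No gene tested (0%), and thus no member, was called by edgeR, no member was called by DESeq2, the likelihood ratio test or the fit with no filter, which called 0.877%, 0.258% and 0.24% of all genes, and 2 members had an unadjusted p under 0.05 in edgeR (4.65%, against 5.36% of all genes tested). These were Bsg, whose log2 ratios were -0.43, -0.42 and 0.50 in CFD and 2.58, 1.52 and 0.49 in HFD, and Jam2, with -2.53, -3.39 and 0.26 in CFD and 0.74, -0.17 and 0.40 in HFD. The interaction was 1.69 (SE 0.55) for Bsg and 2.75 (SE 1.09) for Jam2, with edgeR adjusted p-values of 0.829 and 0.872. Without the input of animal 676 the values were 2.137 and 2.495, with an edgeR adjusted p of 0.938 for both. For both genes the ratios of the diets overlapped, and no member had ratios of opposite sign in all animals of each diet, where 2.45% of all genes tested had.

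Further genes of the same cells and pathway were read from 3 lists. Of 31 other endothelial genes, 24 were tested and edgeR called 1, Spock2, which was higher in IP over both diets at a log2 fold change of 1.32 (SE 0.22, edgeR adjusted p 0.0104). With the animal as a block it was called within HFD as well, where 0.167% of all genes were. It had 13619, 22418 and 14504 counts in CFD input, 19347, 22169 and 29306 in CFD IP, 10061, 8531 and 9977 in HFD input and 37733, 35710 and 17155 in HFD IP. Slc2a1, the glucose transporter GLUT-1, had 681, 101 and 430 counts in CFD input, 1211, 1157 and 1275 in CFD IP, 751, 1517 and 829 in HFD input and 1171, 1328 and 824 in HFD IP, a log2 fold change between IP and input of 1.97 (SE 0.68) in CFD at an edgeR adjusted p of 0.273 and of 0.06 (SE 0.66) in HFD at 0.996. DESeq2 called Slc2a1 in CFD, at 1.99 (SE 0.64) and an adjusted p of 0.0506, and Spock2 as well. Between HFD IP and CFD IP, DESeq2 called Cgn, Clec14a and Palmd, all higher in HFD IP. The likelihood ratio test called Clec14a and Palmd, and the fit with no filter called Clec14a. For Clec14a, animal 517 gave 1781 counts in HFD IP, animals 516 and 676 gave 0 and 56, and no CFD IP library gave any. Its calls thus rest mainly on animal 517. Cgn had 3, 0 and 7 counts in CFD IP and 777, 271 and 117 in HFD IP. Palmd had 149, 70 and 15 against 926, 1821 and 1048.

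Of 16 Wnt and beta-catenin genes of the barrier, 15 were tested, and of 11 genes of leaky or inflamed vessels, with Plvap among them, 6 were tested. None of either list was called in any of the 6 comparisons by edgeR or its likelihood ratio test, and DESeq2 called 1, the Wnt receptor Lrp5, between HFD IP and CFD IP. Lrp5 was lower in HFD IP, at a DESeq2 log2 fold change of -5.03. It had 1, 5 and 776 counts in the CFD IP of animals 489, 555 and 556 and 2, 21 and 20 in HFD IP. The call thus rests on the CFD IP of animal 556. Between HFD IP and CFD IP the median log2 fold change was 0.54 for the other endothelial genes, 0.03 for the Wnt genes and 0.63 for the leaky vessel genes, and 5 of 24, 2 of 15 and 0 of 6 had an unadjusted p under 0.05, against 10.9% of all genes tested. The 5 were all higher in HFD IP, and the 2 went 1 each way.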

How the data were processed

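Gene counts of 12 libraries were read from the authors' deposited table. These deposited counts, 1 whole number for each gene symbol and library with no normalization, were made by the authors from 69 bp paired-end reads aligned to mm10 with STAR. HTSeq is also named in the submitters' processing notes, but the counting options and strand setting are not given in the sources used here, so genes with close copies (Ly6a, Ly6c1, Abcb1a) and the 14 members whose RefSeq span overlaps another gene are uncertain. The labels and the methods name different library kits. The authors' deposited FPKM values served only for gene lengths, and their deposited normalized signal was not used. The log2 fold changes and p-values that the authors deposited come from their own comparisons and were not used.

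Counts were fitted with edgeR 4.0.16 (R 4.3.3, limma 3.58.1, DESeq2 1.42.0) in a quasi-likelihood model of 4 group means over all 12 libraries, with TMM scaling and filterByExpr (minimum count 10, minimum total 15), which kept 14354 genes. Benjamini-Hochberg adjustment ran over every gene in the fit, and the threshold for a call was 0.1, the study's own. Standard errors were obtained from the log2 fold change and the F statistic. Where no library of a group exceeded 3 counts, the fold was computed against 3 counts and is a lower bound. The script was tested on simulated counts.

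Groups and animal numbers come from the labels. IP and input of an animal are paired because both came from 1 mouse. Their deviations from the group means correlated at 0.0064 to 0.19, against a median of -0.018 between animals. Libraries of a group differed by far more than sampling noise (chi-square per degree of freedom at least 119). P-values of the main fit rest on the spread between libraries of a group, each from a different animal. The main fit leaves out the pairing of IP and input, which only the replicate block uses. Reads carry no molecular identifiers, so a count floor covers counting error only.

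The members and lists were chosen with earlier results of these data known. Values in every library were given for Cldn5, Pecam1 and Cdh5, members called, members above 10 counts in all libraries, and up to 5 members with the smallest p per direction and comparison. Abcc4, Slco2b1, Itm2a, Emcn and Mfsd2a also fall under these rules or were picked after their values were seen. A call on 1 gene outside the members is not reported here. Coordinates are those of RefSeq on GRCm38, and Eltd1 is listed there as Adgrl4. Alternatives were RLE scaling, no filter, a likelihood ratio test, DESeq2, an adjusted p under 0.05, no Rn45s and Lars2, a replicate block, only the libraries compared, other count minimums and prior counts, and each animal left out.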

Additional observations from a re-analysis of the deposited data

How the results depend on the processing

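The number of members called depended on the tool. Between HFD IP and CFD IP it was 0 in edgeR, 1 with no filter, 1 with the likelihood ratio test and 3 with DESeq2, and between HFD input and CFD input 0 and, with DESeq2, 1. Between IP and input in CFD it was 0, 1 with no filter and 3 with DESeq2, and in HFD 0, 1 with no filter, 2 with DESeq2 and 0 to 1 when an animal was left out, with 1 without animal 676. Over both diets it was 1, 0 at an adjusted p under 0.05, 2 with no filter, 2 with the likelihood ratio test, 3 with DESeq2, 2 with the replicate block and 0 to 2 when an animal was left out, and only the fit without animal 676 kept Slc3a2. The replicate block reversed the log2 fold change between IP and input over both diets of Cldn5 (-0.50 against 2.74), Cdh5 (0.024 against -0.63) and Plvap (-0.046 against 1.40). The block added the call of Ly6e over both diets and changed no other call on the members. Leaving out the input of animal 676 alone changed no number of members called. Like the sums without the steadily detected members or Spock2 and the bounds without 1 library, it was chosen after the data were seen. Over both diets it turned Cdh5 to 0.088 and Abcb1a from -2.42 to 0.092. It also turned Ets1 from 0.013 to -0.054, Tm4sf1 from -0.98 to 2.32 and Eltd1 from -2.13 to 1.15. Between HFD input and CFD input it reversed Esam, Mfsd2a, Ly6a, Eltd1 (3.88 to -2.68) and Meox1 (2.23 to -4.44). Within HFD it reversed further members between IP and input, among them Abcb1a, from -1.01 to 4.01. Leaving out an animal reversed some directions. The range over the animals left out was -6.20 to 0.48 for Egfl7 and -4.43 to 0.00048 for Vwa1 between HFD IP and CFD IP, -0.80 to 3.95 for Egfl7 between IP and input in CFD, and -0.84 to 2.73 for Mfsd2a, -1.22 to 3.05 for Cldn5, -1.79 to 1.29 for Cdh5, -0.070 to 1.24 for Slc7a5, -0.26 to 1.16 for Tfrc and -0.16 to 1.82 for Plvap between IP and input over both diets. The cause of these changes was not tested. The interaction had no member called under any alternative, and RLE scaling and the removal of Rn45s and Lars2 changed no number of members called. Counts at or under 3 leave only a lower bound of a fold.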
